A study of Mus musculus with 2 samples.

Results

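The genes followed here encode 9 secreted vessel growth factors and their receptors, Vegfa, Vegfc, Flt1, Kdr, Tek, Angpt1, Angpt2, Pdgfb and Pdgfrb. They were taken by symbol, and each matched 1 of the 32285 genes in the count tables. Counts came from single-cell RNA-seq (10x, 3′ ends) of mouse eye cups at E17.5, with 1 library of Myrf humWT/humWT and 1 library of Myrf humdG/humdG eyes. The labels give 3 pooled eye cups per library, whereas the study's methods count both eyes of 3 mice per genotype. Myrf encodes a membrane-bound transcription factor of the retinal pigment epithelium (RPE). In both genotypes the last mouse exon was exchanged for the human one by genome editing. The study's results call the 3′ untranslated region endogenous, whereas its methods call it human. The humdG exon also carries a C-terminal frameshift, so the humWT library is a control with the same exchange. Every cell of these homozygous embryos carries the edited alleles, and pooled animals cannot be separated. The sources differ on the dissection: the label protocol lists the cornea among the parts taken off, whereas the study's methods keep it, and the label protocol also names fl/fl and Cre pools that match neither genotype. With 1 library per genotype there was no replicate and no test of genotype was possible. Intervals are at the 95% level throughout, and the only error they hold is that of counting.

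The humWT library held 17421 barcodes and 129135207 UMIs (unique molecular identifiers, each standing for 1 captured transcript), and the humdG library 19565 barcodes and 114319529 UMIs. Both barcode numbers exceed the cell numbers in the study's text. After filters 16167 and 18173 cells remained, with medians of 3785 and 2625 UMIs, and the libraries shared 102 barcodes. Of 24 expression clusters, 18 were assigned to 15 classes by marker genes, and 6 kept their number and held 41.1% of humWT and 60.6% of humdG cells. In RPE-like cells Myrf was at 286 CPM (UMIs of the gene per 1e6 UMIs of the class) in humWT and 197 CPM in humdG. Both alleles carry the same exchange, and counts per gene hold no sequence, so these 3′ counts do not check the genotype.

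Vessel growth is directed by ligands and receptors on neighbouring cell types. VEGF-A (Vegfa), made by tissue that needs blood supply, acts on endothelial cells through VEGFR2 (Kdr), while VEGFR1 (Flt1) binds the ligand tightly and limits its action, and VEGF-C (Vegfc) acts mainly on lymphatic endothelium. Angiopoietin-1 (Angpt1) activates the endothelial receptor TIE2 (Tek) and stabilises vessels, and angiopoietin-2 (Angpt2) can oppose it. PDGF-B (Pdgfb) from endothelial cells recruits pericytes that carry PDGFRβ (Pdgfrb). In the eye, the RPE is a known source of VEGF-A for the choroidal capillaries beneath it.

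Promoter windows of 300 bases, from 250 before to 50 after a transcription start, were taken from RefSeq (GRCm38.p6) for 5 of the 9 genes only. Those of the 3 receptors known from endothelium and of Vegfa, which encodes a ligand of the VEGF receptors, are shown. Sequences run 5′ to 3′ on the gene's strand, and capitals mark matches on either strand of AGGAAG, a core bound by ETS factors, TGACGTCA, the cAMP response element, and GGGCGG, the SP1 box.
Flt1, chr5:147725962-147726261, minus strand: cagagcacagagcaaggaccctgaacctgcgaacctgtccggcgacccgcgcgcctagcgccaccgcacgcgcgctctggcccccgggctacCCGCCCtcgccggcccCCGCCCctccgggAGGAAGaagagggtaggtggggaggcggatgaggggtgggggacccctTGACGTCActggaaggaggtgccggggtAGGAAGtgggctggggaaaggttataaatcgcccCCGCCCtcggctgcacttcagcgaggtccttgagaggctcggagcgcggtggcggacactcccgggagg
Kdr, chr5:75978406-75978705, minus strand: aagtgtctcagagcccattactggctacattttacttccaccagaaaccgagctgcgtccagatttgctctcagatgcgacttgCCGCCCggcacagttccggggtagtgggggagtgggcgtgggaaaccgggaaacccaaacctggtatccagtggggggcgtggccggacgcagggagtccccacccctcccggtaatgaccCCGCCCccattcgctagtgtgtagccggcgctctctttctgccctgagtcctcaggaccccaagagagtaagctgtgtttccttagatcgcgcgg
Tek, chr4:94739039-94739338, plus strand: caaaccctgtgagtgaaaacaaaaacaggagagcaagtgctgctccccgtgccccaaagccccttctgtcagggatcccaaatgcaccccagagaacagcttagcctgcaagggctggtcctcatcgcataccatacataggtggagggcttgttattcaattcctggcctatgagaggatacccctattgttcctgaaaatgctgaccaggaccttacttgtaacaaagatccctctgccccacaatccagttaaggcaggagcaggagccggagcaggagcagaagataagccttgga
Vegfa, chr17:46032328-46032627, minus strand: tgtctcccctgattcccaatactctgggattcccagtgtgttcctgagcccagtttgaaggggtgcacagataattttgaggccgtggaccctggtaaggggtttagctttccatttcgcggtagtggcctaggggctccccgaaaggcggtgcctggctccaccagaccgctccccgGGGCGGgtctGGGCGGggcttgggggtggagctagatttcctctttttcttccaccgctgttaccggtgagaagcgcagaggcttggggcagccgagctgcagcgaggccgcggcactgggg

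The Flt1 window held 2 matches of AGGAAG, 1 of TGACGTCA and 3 of GGGCGG. The Kdr window and the Vegfa window shown each held 2 of GGGCGG and none of the others, a window at a second Vegfa start (chr17:46025114-46025413, not shown) held 1 of GGGCGG, and the Tek window held none of the 3. Of 32851 promoter windows of the same length, 35.4% held AGGAAG, 1.79% TGACGTCA and 35.7% GGGCGG. A match describes letters and is no evidence of binding.

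Blood vessel-like cells formed 1 cluster in which 8 of 8 endothelial markers were raised. They numbered 647 in humWT, 4.00% of cells (3.71% to 4.32%), and 388 in humdG, 2.14% (1.93% to 2.36%). Other tissue of the outer eye was also scarcer in humdG: mesenchyme-like cells were 11.1% of humWT and 5.62% of humdG cells, muscle-like cells 12.4% and 4.35%, and cartilage-like cells 7.34% and 0.649%. Whether dissection or genotype set these shares cannot be told apart. Median depth of blood vessel-like cells was 4468 UMIs in humWT and 2567 in humdG, so shares of cells with a UMI were also taken after thinning each cell to 1000 UMIs. Free RNA was read from red blood cell-like cells, in which none of the 9 genes should be expressed. They gave 21.8 and 29.8 CPM for Vegfa, 30.9 and 39.2 CPM for Kdr, 13.1 and 5.11 CPM for Tek, and 13.9 and 7.67 CPM for Angpt1 in humWT and humdG. Levels are compared only within a gene.

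**Figure D1:**
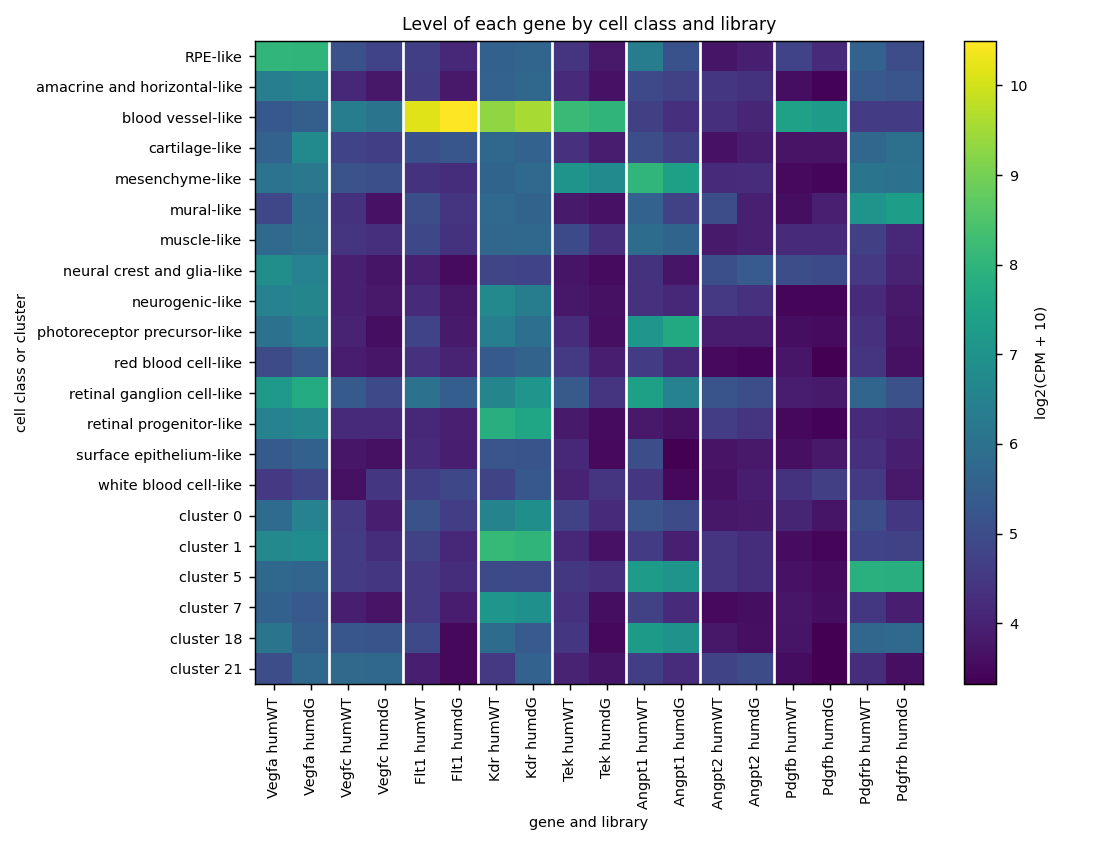
Level of the 9 genes as log2(CPM + 10) (colour), with a row for each of 15 cell classes and 6 numbered clusters and a column for each gene and library. Flt1, Kdr, Tek, Pdgfb and Vegfc were highest in blood vessel-like cells, Vegfa in RPE-like cells and Pdgfrb in cluster 5, in both libraries.

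Vegfa, the ligand of both VEGF receptors, was highest in RPE-like cells. It was counted at 1080 UMIs in 537 humWT cells, 252 CPM (237 to 268), and at 617 UMIs in 404 humdG cells, 249 CPM (230 to 269), which was 11.6 and 8.35 times its level in red blood cell-like cells. In both libraries this interval lay above that of the next class. The RPE-like class joins clusters 13 (463 and 388 cells) and 23 (74 and 16 cells). In cluster 13 Vegfa was at 237 and 239 CPM, a log2 ratio of humdG to humWT of 0.01 (-0.14 to 0.16). In cluster 23 it was at 362 and 520 CPM, a log2 ratio of 0.52 (0.02 to 1.00). Over the joined class the log2 ratio was -0.02 (-0.16 to 0.13). The value depended on a few cells: 1 cell held 10.2% of the humdG UMIs, and without the 5% of cells with most UMIs the log2 ratio was -0.43, while thinned cells gave 0.27. After thinning, 11.7% (9.13% to 14.8%) of humWT and 14.7% (11.4% to 18.5%) of humdG RPE-like cells had a Vegfa UMI, whereas red blood cell-like cells gave 1.92% and 1.91%.

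Vegfa was also counted across the neural retina. Retinal progenitor-like cells gave 633 UMIs (81.4 CPM) in humWT and 1177 UMIs (89.1 CPM) in humdG, 3.74 and 2.99 times the red blood cell-like level, with a log2 ratio of 0.13 (-0.01 to 0.27). Cluster 1, which raised 6 of 7 progenitor markers without any among its leading genes, gave 94.7 and 103 CPM. Retinal ganglion cell-like cells came second to RPE-like cells, at 137 CPM in humWT and 201 CPM in humdG (log2 ratio 0.55, 0.40 to 0.71). That cluster raised 7 ganglion cell and 6 amacrine and horizontal markers, and its mesenchyme markers summed to 8254 and 1389 CPM. Photoreceptor precursor-like cells gave 54.0 and 72.8 CPM (0.43, 0.21 to 0.66), and cluster 0, the largest and shallowest cluster, 46.9 and 80.2 CPM (0.77, 0.61 to 0.94). Of 14 classes compared, the interval lay above equal levels in 5 and below in 0. The 5 were not only classes of the neural retina. Cartilage-like cells gave 38.2 and 96.8 CPM (log2 ratio 1.34), and muscle-like cells 44.5 and 53.2 CPM (log2 ratio 0.26). The muscle-like class joins cluster 2, at 61.7 and 86.9 CPM (0.50, 0.19 to 0.80), and cluster 17, at 24.9 and 31.9 CPM (0.35, -0.09 to 0.79). Mural-like cells gave 9 and 18 UMIs (log2 ratio 1.41). The mural-like and cartilage-like ratios were the highest among the classes compared. Mural-like levels were 19.0 CPM (8.69 to 36.1) and 50.3 CPM (29.8 to 79.5), against 21.8 and 29.8 CPM in red blood cell-like cells. In humdG 1 of 118 cartilage-like cells held 17.3% of their Vegfa UMIs. After thinning, 3.64% (2.65% to 4.87%) of humWT and 5.93% (2.42% to 11.8%) of humdG cartilage-like cells had a Vegfa UMI, and these intervals overlapped. Of the 6 numbered clusters the interval lay above in 2, clusters 0 and 21, and below in 1, cluster 18 (led by Tnmd), at 57.9 and 34.9 CPM (-0.73, -1.30 to -0.21). In blood vessel-like cells, which carry the receptors, Vegfa was at 29.4 and 34.9 CPM, 1.35 (0.989 to 1.87) and 1.17 (0.796 to 1.76) times the red blood cell-like level.

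Vegfc was highest in the blood vessel-like cells themselves. It was counted at 571 UMIs (71.3 CPM) in humWT and 195 UMIs (57.6 CPM) in humdG, a log2 ratio of -0.31 (-0.55 to -0.07), and 1 cell held 32.3% of the humdG UMIs. Cluster 21, a pigmented cluster led by Dct and Tyrp1, followed at 45.8 and 44.2 CPM, and its interval overlapped that of the vessel class in humdG but not in humWT. In mesenchyme-like cells Vegfc was at 525 UMIs (25.4 CPM) and 243 UMIs (23.9 CPM), a log2 ratio of -0.09 (-0.31 to 0.13).

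Flt1 UMIs were mostly endothelial. Blood vessel-like cells held 9010 Flt1 UMIs in humWT, 1125 CPM (1102 to 1149), and 4859 in humdG, 1436 CPM (1396 to 1477). These were 83.6% and 81.9% of all Flt1 UMIs, from a class with 6.67% and 3.14% of all UMIs. The level was 108 and 241 times that of red blood cell-like cells, and the next class, retinal ganglion cell-like cells, was at 55.2 and 34.4 CPM. Within blood vessel-like cells the level was 1.28 times as high in humdG (1.23 to 1.32), a log2 ratio of 0.35 (0.30 to 0.40). The ratio was smaller without the 5% of cells with most UMIs (0.23) and in thinned cells (0.16). After thinning, 36.6% (32.9% to 40.5%) of humWT and 40.3% (35.4% to 45.4%) of humdG cells had a Flt1 UMI, and these intervals overlapped.

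Kdr was counted in endothelium and also in classes of the neural retina, among them progenitors. Blood vessel-like cells gave 5034 UMIs, 629 CPM (612 to 646), in humWT and 2516 UMIs, 744 CPM (715 to 773), in humdG, a log2 ratio of 0.24 (0.17 to 0.31). Without the 5% of cells with most UMIs it was 0.064. Retinal progenitor-like cells gave 1690 UMIs, 217 CPM (207 to 228), in 632 humWT cells and 2388 UMIs, 181 CPM (174 to 188), in 1096 humdG cells. This was 7.02 (5.54 to 9.04) and 4.62 (3.45 to 6.32) times the red blood cell-like level. Cluster 1 was at 268 and 248 CPM, above the progenitor-like class and below the vessel class in both libraries. Neurogenic-like cells gave 94.0 and 72.8 CPM, retinal ganglion cell-like cells 86.3 and 128 CPM, and photoreceptor precursor-like cells 73.9 and 51.9 CPM. Red blood cell-like cells were at 30.9 and 39.2 CPM.

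The Kdr UMIs of progenitors were spread over many cells. A Kdr UMI was found in 87.2% of humWT and 80.9% of humdG retinal progenitor-like cells, and the cell with most held 0.769% and 0.461% of the UMIs. After thinning the shares were 18.1% (15.1% to 21.3%) and 16.8% (14.6% to 19.1%), whereas red blood cell-like cells gave 2.69% and 3.82%. The 8 endothelial markers summed to 41.7 and 24.2 CPM in these cells, below the 58.0 and 40.9 CPM of red blood cell-like cells and far below the 5655 and 6006 CPM of blood vessel-like cells. Flt1 was at 7.85 and 5.53 CPM and Tek at 4.24 and 1.51 CPM in the same cells. Between the genotypes, Kdr of retinal progenitor-like cells had a log2 ratio of -0.27 (-0.36 to -0.17), opposite in sign to the vessel class. Other retinal cells did not share 1 sign: retinal ganglion cell-like cells had 0.56 (0.37 to 0.76) and neurogenic-like cells -0.37 (-0.58 to -0.16). After thinning, 9.47% (6.09% to 13.9%) of humWT and 10.2% (7.28% to 13.8%) of humdG retinal ganglion cell-like cells had a Kdr UMI. Neurogenic-like cells gave 6.83% (4.47% to 9.92%) and 6.79% (5.05% to 8.90%), so the intervals overlapped in both classes. Of 14 classes compared, the interval lay above equal levels in 4 and below in 3. Of the 6 numbered clusters it lay above in 2, cluster 0 (0.41, 0.28 to 0.54) among them, and below in 2. In RPE-like cells Kdr was at 36.9 and 40.4 CPM, 1.19 (0.895 to 1.60) and 1.03 (0.720 to 1.49) times the red blood cell-like level, and so was not detectable above free RNA at this depth.

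**Figure D2:**
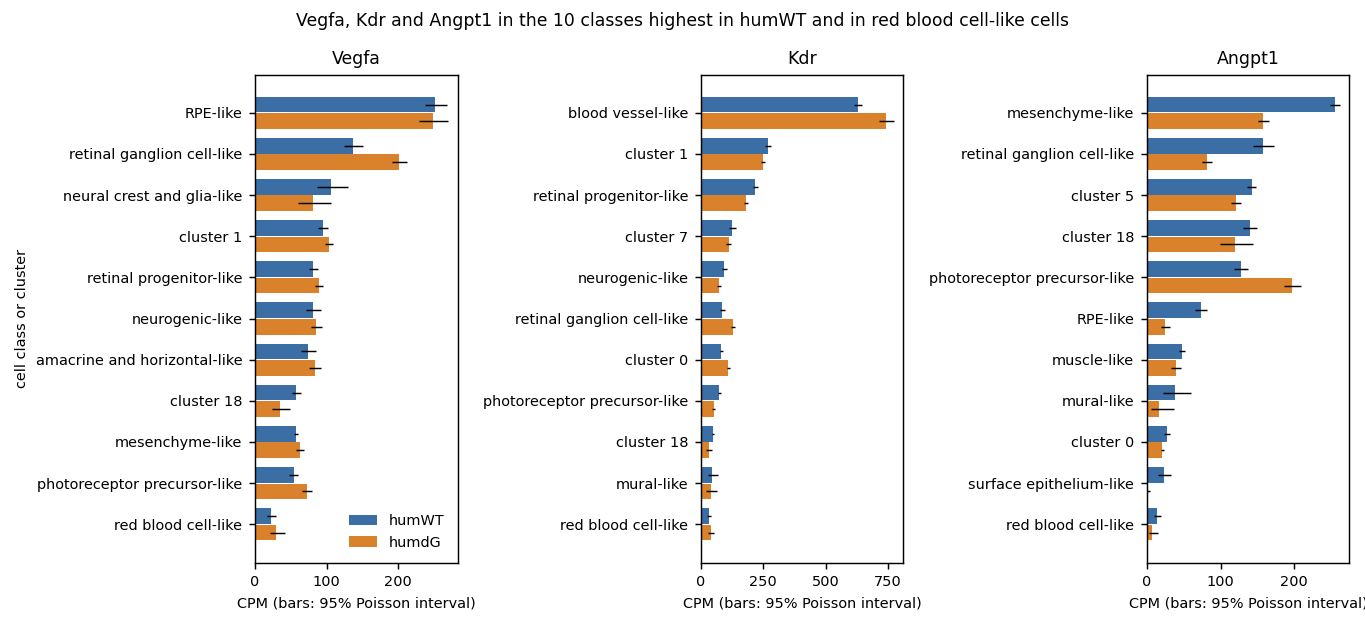
CPM (horizontal axis) of Vegfa, Kdr and Angpt1 in the 10 classes or clusters highest in humWT and in red blood cell-like cells, with a bar for each library and 95% Poisson intervals as error bars. Kdr stood at 629 and 744 CPM in blood vessel-like and at 217 and 181 CPM in retinal progenitor-like cells, and Angpt1 was higher in humWT in mesenchyme-like cells but higher in humdG in photoreceptor precursor-like cells.

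Tek, the angiopoietin receptor, was counted in endothelium and in connective tissue. Blood vessel-like cells gave 2262 UMIs, 283 CPM (271 to 294), in humWT and 837 UMIs, 247 CPM (231 to 265), in humdG, a log2 ratio of -0.19 (-0.31 to -0.08). Mesenchyme-like cells gave 2506 UMIs (121 CPM) in humWT and 971 UMIs (95.4 CPM) in humdG, a log2 ratio of -0.35 (-0.45 to -0.24). They held 42.8% and 41.9% of all Tek UMIs, and blood vessel-like cells 38.7% and 36.1%. Most of it lay in cluster 4, led by the fibroblast genes Tnxb, Pi16 and Clec3b, at 133 and 104 CPM, whereas cluster 10, led by Col12a1 and Postn, was at 32.0 and 39.1 CPM. In mesenchyme-like cells the endothelial markers summed to 51.1 and 43.4 CPM, close to the red blood cell-like sum. No cell held more than 1.75% of the Tek UMIs of this class in its library.

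Angpt1, the activating ligand of TIE2, was highest in mesenchyme-like cells in humWT. It was counted at 5260 UMIs, 255 CPM (248 to 262), in humWT and 1609 UMIs, 158 CPM (150 to 166), in humdG, a log2 ratio of -0.69 (-0.77 to -0.61). The difference lay in cluster 4, at 281 and 175 CPM (-0.68, -0.77 to -0.60), while cluster 10 was at 55.2 and 54.7 CPM (-0.01, -0.44 to 0.40). Cluster 4 had 1197 humWT and 515 humdG cells and cluster 10 had 603 and 506. Cluster 5, a mesenchymal cluster with mural markers, gave 142 and 121 CPM (-0.24, -0.34 to -0.14). In thinned cells the mesenchyme-like ratio was -0.96. With classes set by marker gates in place of clusters it was -0.33. The gated class held 4311 humWT and 1445 humdG cells, against 1800 and 1021 by cluster, and so was another set of cells.

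Photoreceptor precursor-like cells also held Angpt1, with the opposite sign. They gave 662 UMIs, 128 CPM (118 to 138), in humWT and 1112 UMIs, 197 CPM (186 to 209), in humdG, a log2 ratio of 0.63 (0.49 to 0.77), and were the highest class in humdG. After thinning, 9.86% (7.66% to 12.4%) of humWT and 13.2% (11% to 15.7%) of humdG precursors had an Angpt1 UMI, whereas red blood cell-like cells gave 1.54% and 0.382%, and the genotype intervals overlapped. Mesenchyme markers in these precursors summed to 1914 CPM in humWT and 691 CPM in humdG, and their part in the precursor Angpt1 values was not tested. In RPE-like cells Angpt1 was at 313 UMIs (73.1 CPM) and 62 UMIs (25.0 CPM), a log2 ratio of -1.55 (-1.96 to -1.15). That class joins clusters 13 (463 and 388 cells) and 23 (74 and 16 cells), so the humWT sum holds more of cluster 23. Angpt1 was at 56.1 and 22.2 CPM in cluster 13 (-1.34, -1.80 to -0.90) and at 201 and 104 CPM in cluster 23 (-0.95, -2.12 to 0.03). Retinal ganglion cell-like cells gave 158 and 81.4 CPM (-0.96, -1.13 to -0.78). Mesenchyme markers were lower in humdG in both, at 2718 and 1219 CPM in RPE-like and 8254 and 1389 CPM in retinal ganglion cell-like cells, and their part in these Angpt1 values was not tested. Red blood cell-like cells held the same markers at 3016 and 1026 CPM, above the RPE-like sum in humWT only, while Angpt1 of RPE-like cells was 5.24 (3.63 to 7.79) and 3.26 (1.61 to 7.47) times the red blood cell-like level. Of 12 classes compared, the interval lay below equal levels in 6 and above in 1, and of the 6 numbered clusters it lay below in 4 and above in 0. Among those 6 classes, muscle-like cells (-0.28, -0.56 to -0.006) join cluster 2 (-0.36) and cluster 17 (0.43, -0.03 to 0.89). Blood vessel-like cells were at 15.9 and 10.0 CPM and white blood cell-like cells at 11.9 and 1.12 CPM. These levels were near or below the 13.9 and 7.67 CPM of red blood cell-like cells.

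Angpt2 was low throughout. Its highest levels were 26.6 CPM (83 UMIs) in humWT retinal ganglion cell-like cells and 31.6 CPM (20 UMIs) in humdG neural crest and glia-like cells, and the intervals of the leading classes overlapped. Blood vessel-like cells gave 81 UMIs (10.1 CPM) and 24 UMIs (7.09 CPM), a log2 ratio of -0.51 (-1.23 to 0.16), and 1 cell held 50% of the humdG UMIs. Without the cell with most Angpt2 UMIs in each library the ratio was -1.38. Angpt2 lies within Mcph1 on the other strand of chromosome 8 (18690263 to 18741562, GRCm38), and Angpt1 overlaps the antisense gene Gm17473.

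Pdgfb, the ligand that recruits pericytes, was mainly endothelial. Blood vessel-like cells gave 1290 UMIs (161 CPM) in humWT and 500 UMIs (148 CPM) in humdG, a log2 ratio of -0.12 (-0.28 to 0.03), and held 74.1% and 66.5% of all Pdgfb UMIs. Without the 5% of cells with most UMIs the ratio was -0.34. Neural crest and glia-like cells came next, at 22.8 and 20.5 CPM from 21 and 13 UMIs. Pdgfb overlaps Mir7213 and Gm41361.

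Pdgfrb, the receptor of PDGF-B, was highest in cluster 5. It was counted there at 3552 UMIs (225 CPM) in humWT and 2344 UMIs (219 CPM) in humdG, a log2 ratio of -0.04 (-0.11 to 0.04), and the cluster held 54.7% and 57.3% of all Pdgfrb UMIs. Cluster 5 raised 7 mesenchyme and 5 mural markers and was led by Spp1, Mgp and the pericyte gene Rgs5, so it was left without a class name. Mural-like cells, 102 in humWT and 88 in humdG, gave 58 UMIs (122 CPM) and 55 UMIs (154 CPM), a log2 ratio of 0.33 (-0.23 to 0.89). Mural markers in that class summed to 1412 CPM in humWT and 3447 CPM in humdG. Mesenchyme-like cells were at 58.1 and 54.2 CPM (-0.10, -0.25 to 0.04), and blood vessel-like cells at 14.0 and 13.6 CPM.

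The receptors were detected together in deeply sampled endothelial cells. Of blood vessel-like cells with at least 5000 UMIs, 232 of 297 in humWT (78.1%, 73.0% to 82.7%) and 102 of 123 in humdG (82.9%, 75.1% to 89.1%) had a UMI of each of Flt1, Kdr and Tek, and 1.35% and 1.63% had none of them. Pdgfb was found in 76.4% and 69.9% of these cells, Vegfc in 35.7% and 35.8%, and Angpt2 in 15.8% and 7.32%, with overlapping intervals for each gene. Red blood cell-like cells of at least 5000 UMIs, 171 and 89 in number, were shallower, with medians of 6479 and 6236 UMIs against 14430 and 14321. Among them 0 had all 3 receptors (upper limits 2.13% and 4.06%), and none of the 3 was found in 72.5% and 82.0%. Pdgfb was found in 1.75% of them in humWT and in 0 in humdG (upper limit 4.06%), Vegfc in 1.75% and 1.12%, and Angpt2 in 0.585% and 1.12%.

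**Figure D3:**
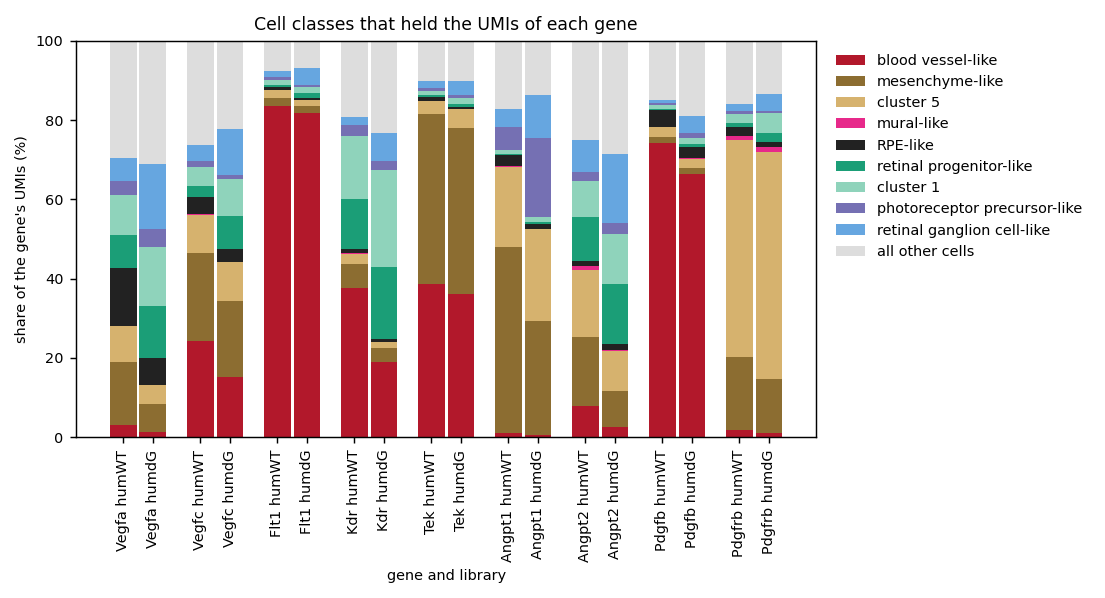
Share of each gene's UMIs (vertical axis, %) held by 9 classes or clusters and by all other cells, with a stacked bar for each gene and library. Blood vessel-like cells held 83.6% and 81.9% of Flt1 UMIs but 37.7% and 18.9% of Kdr UMIs, and cluster 5 held 54.7% and 57.3% of Pdgfrb UMIs.

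Summed over all cells, 6 of the 9 genes had lower levels in humdG, as did 45.0% of 21026 genes with at least 20 UMIs. Flt1 was at 89.8 and 55.1 CPM, Tek at 48.8 and 21.5 CPM, Pdgfb at 14.5 and 6.98 CPM, Angpt1 at 93.4 and 51.8 CPM, Vegfc at 19.7 and 11.9 CPM and Pdgfrb at 54.1 and 38.0 CPM. Kdr was at 111 and 123 CPM and Vegfa at 62.2 and 84.2 CPM, and for Angpt2, at 8.57 and 8.93 CPM, the interval of the ratio included equal levels. In such sums fewer cells of a type and less RNA per cell cannot be told apart. The share of Kdr UMIs from blood vessel-like cells was 37.7% in humWT and 18.9% in humdG, while retinal progenitor-like cells and cluster 1 held 12.7% and 15.7% in humWT and 18% and 24.7% in humdG.

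**Figure D4:**
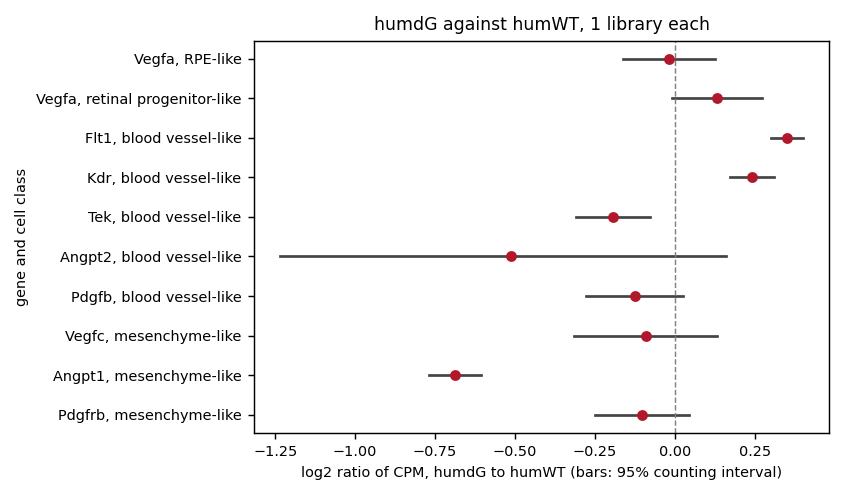
Log2 ratio of CPM of humdG to humWT (horizontal axis) for 10 pairs of a gene and a cell class, with a point for the ratio and a line for the 95% counting interval. Flt1 (0.35) and Kdr (0.24) lay above 0 in blood vessel-like cells, and Tek there (-0.19) and Angpt1 in mesenchyme-like cells (-0.69) lay below 0.

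The differences of the 9 genes between the genotypes were set beside those of all genes. Of 13486 genes in blood vessel-like cells with at least 20 UMIs there, 7.3% differed at least 2-fold in either direction, and 0 of the 9 did, a count near that share, with 3 higher and 6 lower in humdG and a median log2 ratio of -0.12 against -0.04 over all genes. In mesenchyme-like cells 0 of 9 differed at least 2-fold against 5.37% of all genes, with medians of -0.10 and -0.07. In retinal progenitor-like cells 1 of 8 did, Tek, against 5.95%. Tek there was at 4.24 and 1.51 CPM, below the 13.1 and 5.11 CPM of red blood cell-like cells, and so not detectable above free RNA. In RPE-like cells 4 of 9 did against 8.46%: Flt1, Tek, Angpt1 and Pdgfb, all lower in humdG, and the median over the 9 was -0.75 against -0.07. Flt1 and Tek there were at 15.2 and 11.7 CPM in humWT, 1.45 (0.896 to 2.42) and 0.892 (0.557 to 1.45) times the red blood cell-like level. Within cluster 13 alone Flt1 (-0.57, -1.48 to 0.28) and Pdgfb (-0.99, -1.80 to -0.25) were under 2-fold, and Tek (-1.23) and Angpt1 (-1.34) past it. In photoreceptor precursor-like cells 4 of 9 did against 7.12%: Vegfc, Flt1, Tek and Pdgfrb, all lower in humdG and none above 17.2 CPM, and the median over the 9 was -0.51 against 0.02. Beside free RNA, the level of these 4 in humWT was 0.664 (Tek) to 1.64 (Flt1) times that of red blood cell-like cells, and in humdG Flt1 was at 0.713 (0.298 to 1.96), Vegfc at 0.624 (0.189 to 2.65) and Tek at 0.451 (0.160 to 1.45) times that level.

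Other genes of vessel signalling came from a list of 29, of which 27 had at least 20 UMIs in blood vessel-like cells. In humdG 13 were higher and 14 lower, 2 of them at least 2-fold, with a median log2 ratio of -0.05. Of all genes in these cells 45.1% were higher and 7.3% differed at least 2-fold, so the list was near the background. Flt4, the VEGF-C receptor, was at 66.3 and 86.6 CPM (0.38, 0.17 to 0.59). Esm1 was at 12.2 and 16.0 CPM (0.38, -0.12 to 0.88), with an interval that included equal levels. Unc5b, a netrin receptor, was at 137 and 161 CPM (0.23, 0.08 to 0.38). These 3 ratios were the highest. The lowest were those of Thbs1, which encodes the vessel inhibitor thrombospondin-1, at 14.9 and 5.61 CPM (-1.40, -2.19 to -0.70), of the receptor gene Pdgfra at 20.2 and 10.0 CPM (-1.01, -1.59 to -0.47), and of the ligand gene Pdgfa at 21.6 and 10.9 CPM (-0.98, -1.54 to -0.46). Mesenchyme markers in blood vessel-like cells summed to 2347 CPM in humWT and 727 CPM in humdG, below the 3016 and 1026 CPM of red blood cell-like cells, and their part in these 3 low values was not tested.

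Among the listed genes with most UMIs in blood vessel-like cells, the VEGF co-receptor Nrp1 was at 524 and 506 CPM (-0.05, -0.13 to 0.03), Eng, a TGF-β co-receptor, at 469 and 499 CPM (0.09, 0.01 to 0.17), and Tie1, a partner of TIE2, at 285 and 275 CPM (-0.05, -0.16 to 0.06). Ptprb, a phosphatase that dampens TIE2, was lower in humdG, at 469 and 386 CPM (-0.28, -0.37 to -0.19), and so was Nrp2, a co-receptor of VEGF-C, at 327 and 258 CPM (-0.34, -0.45 to -0.23).

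Vegfa is a known target of the hypoxia-inducible factors, and 17 genes linked to hypoxia were read in the same cells. The list joins regulators, such as Hif1a, Epas1, Arnt and Vhl, with targets, so its counts are not of targets alone. In RPE-like cells 12 of 14 with at least 20 UMIs were higher in humdG and 2 lower, 0 of them at least 2-fold, with a median log2 ratio of 0.37 against -0.07 over all genes, of which 43.7% were higher and 8.46% differed at least 2-fold. The highest were the glycolytic enzyme gene Ldha, at 408 and 762 CPM (0.90, 0.81 to 1.00), and Bnip3, a mitophagy gene, at 32.4 and 53.7 CPM (0.73, 0.37 to 1.08). The lowest were Arnt, the common partner of these factors (-0.49, -0.87 to -0.12), and the oxygen sensor gene Egln1 (-0.03, -0.27 to 0.20). The RPE-like class joins clusters 13 and 23 in unlike proportions in the libraries, and the hypoxia genes were read only for the joined class. In retinal progenitor-like cells 8 of 15 were higher and 7 lower, 1 at least 2-fold, with a median of 0.00, while of all genes there 42.5% were higher and 5.95% differed at least 2-fold, with a median of -0.04. Egln3 (1.07, 0.65 to 1.52) and Pdk1 (0.45, 0.30 to 0.61) were the highest there, and Epas1 (-0.92, -1.61 to -0.23) and Vhl (-0.36, -0.72 to 0.01) the lowest.

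The genes closest in pattern were found by Pearson's r of log2(CPM + 10) over 42 points, the 21 classes and clusters of both libraries, among 5104 genes. The points of a library share its depth and free RNA, so r is a description. Flt1 was most like Pecam1, Adgrl4 and Ptprb (0.98, 0.98 and 0.97), and Pdgfb most like Cd38, Arap3 and Icam2 (0.91, 0.91 and 0.90). Kdr was most like Tmem255a, Six3os1 and Six3 (0.80, 0.74 and 0.72), with 0.65 to Flt1. Tek was most like Igfbp3, Cd34 and Thsd1 (0.90, 0.89 and 0.86). For Vegfa the genes were Fads2, Stxbp4 and Nectin3 (0.92, 0.88 and 0.87), for Vegfc Itpkb, St6galnac3 and Sptbn1 (0.83, 0.82 and 0.82), and for Angpt1 Cdh18, Meg3 and Rassf8 (0.92, 0.86 and 0.84). For Angpt2 they were Gfra1, Nalcn and Zeb2 (0.72, 0.71 and 0.70), and for Pdgfrb Ednra, Fmo1 and Mgp (0.90, 0.86 and 0.86).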

How the data were processed

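The deposited files hold UMI counts per gene and barcode, not normalized. Per the labels, the authors made them with Cell Ranger 7.1.0 on mm10 and list Seurat 4.1.1. Whether intronic reads were counted is not given in the sources used here, and overlapping genes could share UMIs where strand was not used. Barcodes needed over 500 detected genes and a mitochondrial share under 15%, which removed 136 and 178 barcodes for genes and 268 and 258 for mitochondrial UMIs in humWT and humdG. Scrublet (scanpy 1.11.5) called 1 and 0 doublets and so had not worked, and the 5% of cells with the highest scores (850 and 956) were removed. Cells were integrated and clustered with Seurat 5.3.0 in R 4.3.3 (2000 variable genes, 20 dimensions, resolution 0.5), leaving out the 9 genes and 29 listed vessel genes.

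A cluster took a class name where at least 3 markers of that class were raised at least 2-fold in at least 10% of cells and 1 was among its 20 leading genes. Where the 10 leading genes held fewer markers of the class itself than of some other class, the cluster kept its number. That check was applied after the clusters were seen and kept cluster 5 (5.84% of humWT and 3.17% of humdG cells) out of the mesenchyme-like class. UMIs were summed per class and library and divided by the UMIs of the class. Levels have exact Poisson, shares exact Clopper-Pearson and ratios exact conditional binomial intervals. The ratio interval was tested on simulated Poisson counts. Such counts hold counting error only, so the test cannot speak for spread between cells. UMIs are single molecules, but cells of 1 library are not replicates. A gene was compared where both libraries together had at least 20 UMIs in the class.

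The 9 genes were named in the classes that held them. From the vessel list, the 3 highest and 3 lowest ratios and the 5 highest levels were named, from the hypoxia list the 2 highest and 2 lowest ratios per class, and for each gene the 3 closest in pattern among genes reaching 100 CPM. The members and lists were chosen with earlier results of these data known. Gene positions came from GENCODE M21 (GRCm38, the mm10 assembly), where 32158 of 32285 identifiers were found. Alternatives were another resolution, no integration, no doublet removal, other cell filters, marker gates, removal of cells with many UMIs, subtraction of the free RNA level, thinning and median-of-ratios scaling.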

Additional observations from a re-analysis of the deposited data

Results flagged for a closer look

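For 4 genes the ratio of humdG to humWT lay above equal levels in at least 1 class and below it in another, by counting error alone. The share of all genes with such mixed signs was not computed, so whether 4 exceeds the background was not tested. For each of the 4 genes only the highest and the lowest such class are named first. The difference between classes was not tested, since each genotype had 1 library. Flt1 had a log2 ratio of 0.35 in blood vessel-like cells and -2.01 in photoreceptor precursor-like cells, where it rested on 89 and 24 UMIs and was 1.64 (1.04 to 2.69) and 0.713 (0.298 to 1.96) times the red blood cell-like level, used as the measure of free RNA. Kdr had 0.71 in white blood cell-like cells, from 51 and 52 UMIs, and -0.51 in photoreceptor precursor-like cells. Its levels in the former were 17.8 and 29.2 CPM, below the 30.9 and 39.2 CPM of red blood cell-like cells in both libraries. In all, Kdr lay above equal levels in 4 classes and below in 3. Those above included retinal ganglion cell-like cells, at 86.3 and 128 CPM from 269 and 942 UMIs (0.56, 0.37 to 0.76), and blood vessel-like cells (0.24). After thinning, 9.47% and 10.2% of retinal ganglion cell-like cells had a Kdr UMI. Photoreceptor precursor-like cells gave 4.69% and 4.52%, and the genotype intervals overlapped in both classes. Angpt1 had 0.63 in photoreceptor precursor-like cells and -3.40 in white blood cell-like cells, from 34 and 2 UMIs. The latter were 11.9 and 1.12 CPM, below the 13.9 and 7.67 CPM of red blood cell-like cells. Vegfc had 2.27 in white blood cell-like cells, where 1 cell held 90.5% of the 21 humdG UMIs, and -1.54 in photoreceptor precursor-like cells. Its level there was 1.29 (0.632 to 2.83) and 0.624 (0.189 to 2.65) times that of red blood cell-like cells, so this ratio too was not of values detectably above free RNA.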

How the results depend on the processing

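No paired analysis was possible because each genotype had 1 library. No ratio of the 10 pairs of a gene and a class that was past its counting interval changed sign. Those of Vegfa in RPE-like and retinal progenitor-like cells (in the latter -0.0071 to 0.19) and of Pdgfrb in mesenchyme-like cells, which were not past it, took both signs. The cause of the moves below was not tested. Marker gates put 49 humWT and 39 humdG cells in the RPE-like class, against 537 and 404 by cluster. In the mesenchyme-like class they put 4311 and 1445, against 1800 and 1021. Gates that left out the red blood cell list put 204 and 283 cells in the former and 9852 and 4828 in the latter. Gated ratios are therefore of other sets of cells. With marker gates, log2 ratios were -0.25 for Vegfa in RPE-like cells, 0.13 for Kdr in blood vessel-like cells, -0.33 for Angpt1 and 0.33 for Pdgfrb in mesenchyme-like cells, and blood vessel-like cells were 1.62% of humWT and 0.853% of humdG cells. With gates that left out the red blood cell list, added after seeing the data, they were 0.14 for Vegfa, 0.27 for Flt1, 0.12 for Kdr, -0.35 for Angpt1 and 0.29 for Pdgfrb, with shares of 1.85% and 1.06%. Without the 5% of cells with most UMIs they were -0.43 for Vegfa, 0.23 for Flt1, 0.064 for Kdr and -0.34 for Pdgfb. Thinned cells gave 0.27 for Vegfa, 0.16 for Flt1, -1.26 for Angpt2 and -0.96 for Angpt1. Resolution 1.0 gave -0.83 for Angpt1, subtraction of free RNA 0.14 for Pdgfrb, clustering without integration a humdG vessel share of 1.87%, and omission of the cell with most UMIs of the gene, also added after seeing the data, -1.38 for Angpt2. The other 109 ratios and shares stayed within their counting intervals, including the ratios of Tek, of Vegfa in retinal progenitor-like cells and of Vegfc in mesenchyme-like cells under all 12 alternatives. Levels were less stable, and 86 moved beyond their intervals while 134 did not. In humWT, Vegfa in RPE-like cells ranged from 149 to 333 CPM, Flt1 and Tek in blood vessel-like cells from 692 to 1322 and from 176 to 328 CPM, and Angpt1 in mesenchyme-like cells from 140 to 268 CPM. Depth limited Angpt2 most, with 81 and 24 UMIs in blood vessel-like cells.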
